A study of Mus musculus with 9 samples.

Results

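The MHC class II presentation genes examined here were 7 rows of the gene table, chosen by name: H2-Aa, H2-Ab1, H2-Eb1, H2-DMa, H2-DMb1, Cd74 and Ciita. They are 7 of 26139 genes, and all 7 had reads in every kidney library. RNA was sequenced from whole mouse kidney in 3 groups of 3 libraries. WT libraries came from C57/BL6 mice given saline by gavage. IgAN libraries came from Itgam-IRES-hCD89 mice, in which the human IgA receptor CD89 is placed behind the myeloid gene Itgam, also given saline. GQYS libraries came from the same knock-in gavaged every day for 5 months with Gui-qi-yi-shen granules, a herbal preparation under study for IgA nephropathy. The titles call both saline groups untreated. Every group was gavaged, and both knock-in groups carry the same allele, so the saline IgAN group is the knock-in control for the granules. The sources used here give no age, sex or number of animals or founder lines. Whether the replicates are different animals is not stated, and the p-values therefore speak only of library-to-library spread, which may be technical.

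MHC class II molecules are pairs of an alpha and a beta chain that carry peptides from internalised proteins to the surface, where CD4+ T cells read them. Cd74, the invariant chain, escorts newly made pairs and blocks their groove, H2-DM helps exchange the remaining fragment of Cd74 for a peptide, and H2-O restrains H2-DM. In kidney, class II is carried mainly by dendritic cells, macrophages and B cells, and tubular cells can acquire it under interferon-gamma. Ciita is the coactivator that switches the set on. It does not bind DNA itself but is recruited to an X and Y box promoter module held by RFX, CREB and NF-Y proteins.

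Letters of that module can be read in the RefSeq promoter windows of some class II chain genes, shown as sequence context for the members and the H2-O chains. The windows run from 250 bases before to 50 bases after each start, on GRCm38.p6. They matched by symbol to 4 of the 6 members outside Cd74, and the printed stretches are given 5′ to 3′ on the strand of the gene. Capitals mark GNAAC, an X-box-like core, and TGATTGG, the Y box with its CCAAT element read on the other strand. The search asked for GNAAC followed by TGATTGG after 20 to 32 bases. These letters and this spacing were chosen after the windows had been seen.
H2-Aa: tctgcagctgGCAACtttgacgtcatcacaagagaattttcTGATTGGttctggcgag
H2-Eb1: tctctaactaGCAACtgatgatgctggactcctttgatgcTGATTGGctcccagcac
H2-DMb1: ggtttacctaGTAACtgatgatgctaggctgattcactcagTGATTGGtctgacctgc
H2-Oa: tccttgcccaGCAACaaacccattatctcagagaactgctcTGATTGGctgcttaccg
H2-Ob: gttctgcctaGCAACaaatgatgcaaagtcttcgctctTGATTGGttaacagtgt

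The stretch of H2-Aa is at chr17:34287857-34287914 on the minus strand. Those of H2-Eb1 at chr17:34305766-34305822, H2-DMb1 at chr17:34153087-34153144, H2-Oa at chr17:34092293-34092350 and H2-Ob at chr17:34238808-34238862 are on the plus strand. The gap between the capitals was 26 bases in H2-Aa, H2-DMb1 and H2-Oa, 25 in H2-Eb1 and 23 in H2-Ob. TGATTGG began 50 bases before the start of H2-Aa, 61 before H2-Eb1, 63 before H2-DMb1, 45 before H2-Oa and 59 before H2-Ob. Of all 32851 windows, 0.155% held this arrangement on the strand of the gene and 0.35% held it on either strand. TGATTGG alone was in 7.82% of windows on either strand, and GNAAC alone in 84.8%. The window of H2-Eb2 also held it, while the 2 windows of H2-DMa and the window of H2-DMb2 did not hold it in these letters. H2-Ab1 and Ciita were not matched. A match describes the letters of these windows and was not tied to any measurement, and the submitters' processing notes name GRCm39 as the build of the data.

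The libraries held 30564947 to 38161564 gene-assigned reads, inferred from the spacing of low FPKM values (reads scaled to gene length and library total). They carried kidney RNA, with Slc34a1, the phosphate carrier of the proximal tubule, at 1604 ± 248 (WT), 1622 ± 56.1 (IgAN) and 1723 ± 139.9 FPKM (GQYS; SD over 3 libraries). Itgam, the knock-in locus, was scarce, with group means of 0.495 ± 0.197 (WT), 0.289 ± 0.132 (IgAN) and 0.0848 ± 0.0574 FPKM (GQYS). Some libraries stood apart. WT replicate 1 had 18.6% of its reads on mitochondrial genes against 7.81% to 13.3% in the others, and it differed from the other WT libraries by a chi-square per gene of 171 and 190, against 24.3 between those 2. IgAN replicate 1 and replicate 2 differed by 76.4. WT replicate 1 also held the most reads on the lymph node stroma list, 459 against 105 to 239 in the others. Ccl19 of that list was at 5.46 FPKM there against at most 2.44 elsewhere, while Cxcl13 was highest in IgAN replicate 1. Its summed reads on the T cell genes were 371 against at most 262. WT replicate 3 held fat and bladder-lining transcripts, with Cfd at 11.4 FPKM against at most 0.158 elsewhere and the urothelial gene Upk1a at 4.70 against at most 1.63. IgAN replicate 1, the highest library for Cd74, held Krt20 at 14.2 FPKM against at most 0.232 elsewhere. Krt20 was placed on the urothelial list. The urothelial genes Upk1a, Upk2 and Upk3a were instead at their lowest in that library, at 0.275, 0.0374 and 0.177 FPKM. Which cells Krt20 came from there was not tested. The part of these transcripts, or of the lymph node and T cell genes, in the class II levels was not tested.

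None of the class II genes differed between groups past the threshold in any of the 3 comparisons. With limma on log2(FPKM + 1) and Benjamini-Hochberg adjusted p under 0.05 over all 11617 genes with at least 1 FPKM in at least 3 libraries, 0 of 5 tested members were called. The background was 0.353% of tested genes in IgAN against WT, 0.198% in GQYS against IgAN and 0.0% in GQYS against WT. H2-DMa and Ciita lay under this filter, and in the fit without a filter they were not called either, where 0.0882%, 0.0546% and 0.0% of 23797 genes were called. No member reached an unadjusted p under 0.05, which 10.3%, 10.4% and 4.43% of tested genes did. No member had FPKM ranges apart between groups, against 14.0%, 19.1% and 9.74% of tested genes. In bulk kidney, fewer class II-bearing cells and less class II RNA per cell cannot be told apart.

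**Figure D1:**
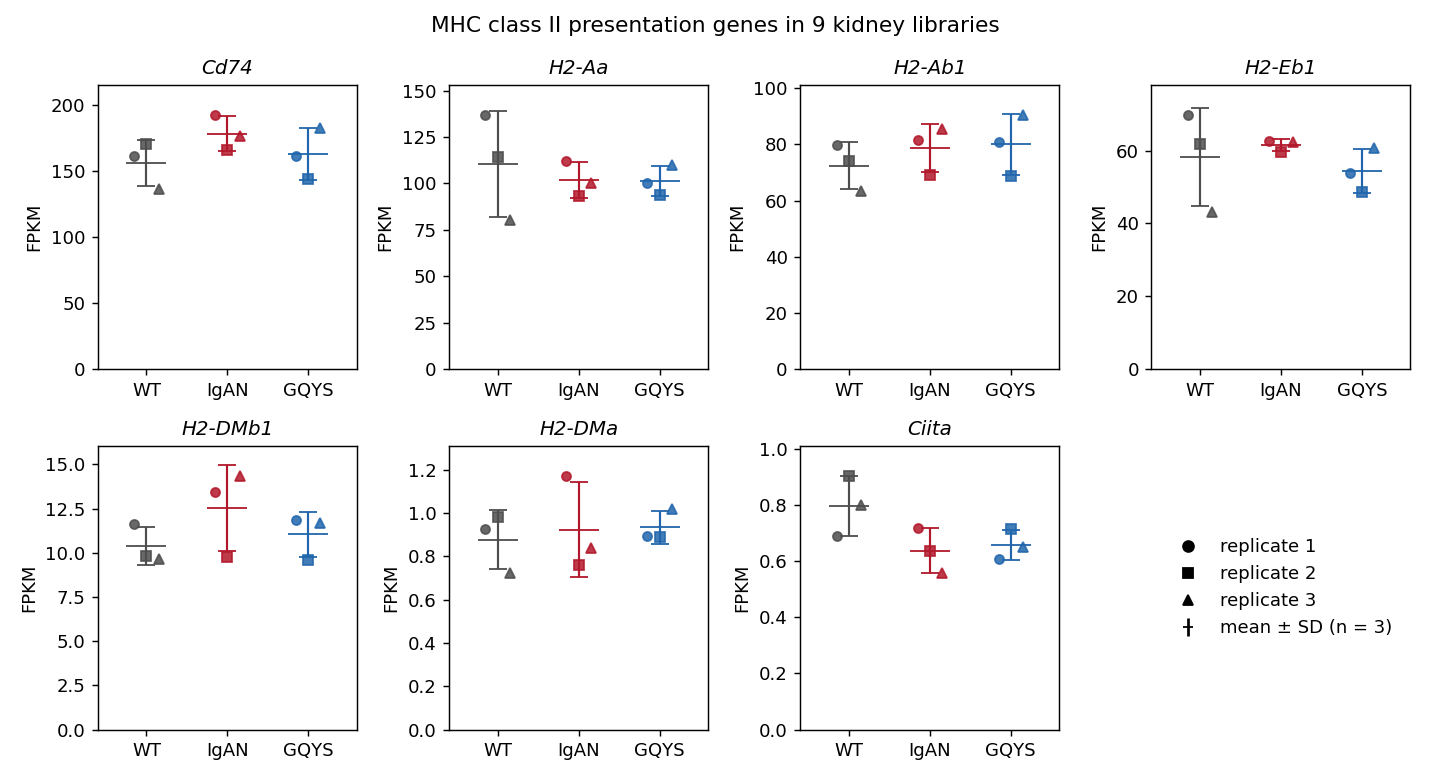
FPKM (y axis, linear from 0, a separate scale in each panel) of the 7 class II genes in the WT, IgAN and GQYS groups (x axis), with symbols for replicates and bars for mean ± SD (n = 3). In every panel the libraries of the 3 groups overlap.

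The intervals show how large a difference the libraries leave room for. Across the 7 members, the 95% confidence intervals of IgAN against WT lay between -0.48 and 0.58 in log2(FPKM + 1). This is 0.718-fold to 1.49-fold of FPKM + 1. On that scale, intervals of GQYS against IgAN lay between 0.685-fold and 1.31-fold, and those of GQYS against WT between 0.715-fold and 1.36-fold. H2-DMa and Ciita had group means under 1 FPKM, where folds of FPKM + 1 understate those of FPKM. The median change was 0.10 in IgAN against WT with 5 members higher and 2 lower, -0.0062 in GQYS against IgAN with 3 higher and 4 lower, and 0.045 in GQYS against WT with 4 higher and 3 lower. The medians of all tested genes were 0.021, 0.0064 and 0.029. GQYS against WT reuses the libraries of the other two, so the 3 sets of values are not independent.

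**Figure D2:**
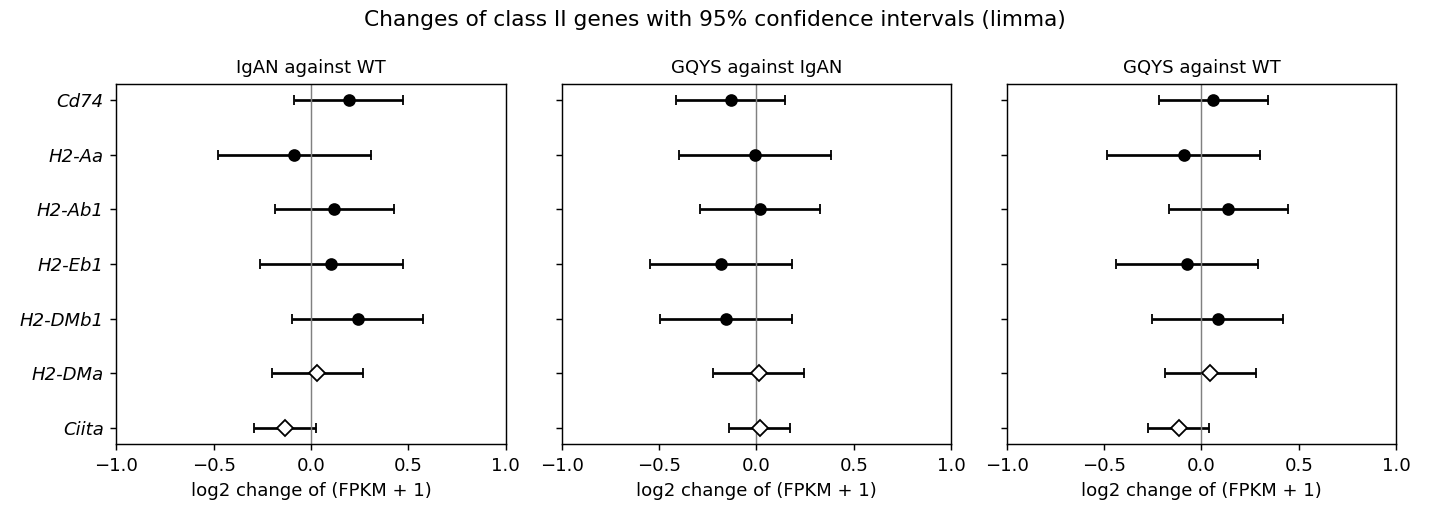
Change in log2(FPKM + 1) (x axis) of each class II gene (y axis) in the 3 comparisons, with 95% confidence intervals from limma. Filled circles are genes that passed the low-value filter and open diamonds are H2-DMa and Ciita, from the fit without a filter. Every interval crosses 0.

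Cd74, the invariant chain, had the highest FPKM of the 7 in all 9 libraries. It measured 162, 170 and 137 FPKM in the WT libraries, 192, 166 and 176 in IgAN, and 162, 144 and 183 in GQYS. WT replicate 3 was lowest and IgAN replicate 1 highest, and WT replicate 2 lay inside the IgAN range. The group means were 156 ± 17.5, 178 ± 13.3 and 163 ± 19.4 FPKM. The change in log2(FPKM + 1) was 0.19 ± 0.13 (SE) for IgAN against WT, with an adjusted p of 0.663 from limma, and -0.13 ± 0.13 for GQYS against IgAN, with an adjusted p of 0.842.

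H2-Aa encodes the alpha chain of the I-A molecule and H2-Ab1 its beta chain. H2-Aa measured 137, 114 and 80.3 FPKM in WT, 112, 93.3 and 100.2 in IgAN, and 100.2, 94.0 and 110 in GQYS. The WT libraries held both the highest and the lowest value, and all IgAN and GQYS libraries lay between them. H2-Ab1 measured 79.9, 74.1 and 63.5 FPKM in WT, 81.4, 69.3 and 85.6 in IgAN, and 80.9, 68.7 and 90.4 in GQYS. Its lowest value was again WT replicate 3, and replicate 2 of each knock-in group lay inside the WT range. The mean of H2-Aa was 111 ± 28.4, 102 ± 9.66 and 101 ± 8.09 FPKM in WT, IgAN and GQYS, and its changes were -0.086 for IgAN against WT and -0.0062 for GQYS against IgAN. The mean of H2-Ab1 was 72.5 ± 8.34, 78.8 ± 8.48 and 80.0 ± 10.9 FPKM, and its changes were 0.12 and 0.019. Limma's adjusted p was 0.933 and 0.999 for H2-Aa, and 0.860 and 0.997 for H2-Ab1.

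H2-Eb1 encodes the beta chain of the I-E molecule. Mice of the H-2b haplotype, which C57BL/6 carries, are known to lack a working I-E alpha chain; that partner gene, H2-Ea, was not analysed here. H2-Eb1 measured 69.7, 61.8 and 43.3 FPKM in WT, 62.6, 59.5 and 62.5 in IgAN, and 53.9, 48.6 and 60.7 in GQYS. GQYS replicate 3 lay above the lowest IgAN library, and WT replicate 3 lay below all other libraries. Its mean was 58.3 ± 13.6, 61.5 ± 1.75 and 54.4 ± 6.09 FPKM. The change in log2(FPKM + 1) for GQYS against IgAN, -0.18 ± 0.16 (SE), was the most negative of any member in any comparison. The adjusted p of this change was 0.827 from limma. That scale understates changes of Ciita, whose means were 0.797 FPKM in WT and 0.638 in IgAN.

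H2-DMb1 and H2-DMa encode the beta and alpha chains of the peptide exchange factor H2-DM. H2-DMb1 measured 11.6, 9.85 and 9.65 FPKM in WT, 13.5, 9.78 and 14.3 in IgAN, and 11.9, 9.59 and 11.7 in GQYS. IgAN replicates 1 and 3 were the highest, while IgAN replicate 2 lay among the WT values. Its change of 0.24 ± 0.15 (SE) for IgAN against WT was the most positive of the members, with an adjusted p of 0.652 from limma. H2-DMa was listed at 0.925, 0.981 and 0.723 FPKM in WT, 1.17, 0.759 and 0.840 in IgAN, and 0.892, 0.889 and 1.02 in GQYS. IgAN replicate 1 was highest, and the other IgAN libraries lay inside the WT range. Its change was 0.032 for IgAN against WT and 0.013 for GQYS against IgAN, in the fit without a filter.

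The low FPKM of H2-DMa depended on the gene length used. Reads and FPKM together gave a length of 8332 bases for H2-DMa, against 2005 bases for its longest coding transcript and 3448 bases for all its exons in GENCODE M21, so the length was 4.16 times that of the longest coding transcript. For H2-Aa the implied length was 1129 bases against 1128, for H2-Eb1 1670 against 1669, for Cd74 1416 against 1410, for H2-Ab1 1194 against 1212 and for H2-DMb1 1285 against 1404. Per kilobase of its longest coding transcript, H2-DMa had 3.64 ± 0.565 reads per 1000000 in WT, 3.84 ± 0.904 in IgAN and 3.88 ± 0.310 in GQYS, from 186 to 312 reads per library. On the same scale H2-DMb1 had 9.49 ± 0.993, 11.5 ± 2.22 and 10.1 ± 1.17. The length divides out of comparisons of H2-DMa between groups but sets its level beside other genes. Which exons were counted for H2-DMa is not known, and whether its row holds reads of a neighbouring gene was not tested, a doubt that touches both its level and its group comparisons.

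Ciita, the coactivator, was the scarcest member by FPKM in 8 of 9 libraries. It measured 0.689, 0.903 and 0.801 FPKM in WT, 0.719, 0.638 and 0.557 in IgAN, and 0.607, 0.714 and 0.650 in GQYS, from 182 to 337 reads per library. WT replicates 2 and 3 were the highest of the 9 libraries, and WT replicate 1 lay below IgAN replicate 1 and GQYS replicate 2. The means were 0.797 ± 0.107, 0.638 ± 0.0812 and 0.657 ± 0.0537 FPKM. The change for IgAN against WT was -0.13 ± 0.07 (SE), with an unadjusted p of 0.0856 and an adjusted p of 0.629 from limma without a filter, the smallest p of the members. The implied length of Ciita was 9783 bases, against 6007 for its longest coding transcript and 9535 for all its exons.

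By FPKM the order was Cd74, H2-Aa, H2-Ab1, H2-Eb1 and H2-DMb1 in 9 of 9 libraries. H2-DMa came before Ciita in 8 of 9, and WT replicate 3 had the reverse. Within the WT group, the ranges of Cd74 and H2-Aa, of H2-Ab1 and H2-Eb1, and of H2-DMa and Ciita overlapped. In the IgAN and GQYS groups no neighbours in the order overlapped. All 7 together took 558 ± 88.0 reads per 1000000 in WT, 594 ± 44.1 in IgAN and 560.2 ± 61.2 in GQYS, with WT replicate 3 lowest at 458 and IgAN replicate 1 highest at 635.

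The spread within a group was mostly far above counting error for the abundant members. H2-Aa varied by 25.7% (coefficient of variation) among WT libraries, where counting alone gives 1.51%. H2-Eb1 varied by 23.3% in WT, by 2.84% in IgAN, where counting alone gives 1.72%, and by 11.2% in GQYS. WT replicate 1 was the highest of the 9 libraries for H2-Aa and H2-Eb1. It also held the most lymph node stroma and T cell reads, as given above. WT replicate 3 was the lowest of the 9 for Cd74, H2-Aa, H2-Ab1, H2-Eb1 and H2-DMa, though not for H2-DMb1 or Ciita. That library also had the lowest summed level of 12 macrophage markers, at 67.0 FPKM against up to 153 in WT and 118 to 178 in IgAN, and of 8 general leukocyte genes, at 34.4 FPKM. It held the transcripts of other tissues named above. The part of the macrophage and leukocyte markers in the class II levels was not tested either.

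Ratios between chains compare members within a library and do not depend on its total. H2-Aa to H2-Ab1 was 1.71, 1.54 and 1.27 in WT, 1.38, 1.35 and 1.17 in IgAN, and 1.24, 1.37 and 1.22 in GQYS. WT replicates 1 and 2 were the highest, and WT replicate 3 lay inside the other groups' ranges. H2-Eb1 to H2-Ab1 was 0.872, 0.834 and 0.682 in WT, 0.768, 0.859 and 0.730 in IgAN, and 0.666, 0.707 and 0.672 in GQYS. All 3 GQYS libraries lay below all 3 IgAN libraries, with means of 0.682 ± 0.0223 and 0.786 ± 0.0662, while WT replicate 3 lay inside the GQYS range. The exact 2-sided permutation p was 0.1, the smallest that 3 against 3 libraries allow, and 0.75 after Benjamini-Hochberg adjustment over the 15 ratio comparisons. Cd74 to H2-Ab1 averaged 2.16 ± 0.137, 2.27 ± 0.184 and 2.04 ± 0.0540 in WT, IgAN and GQYS, and none of the 15 comparisons had an adjusted exact p below 0.75.

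**Figure D3:**
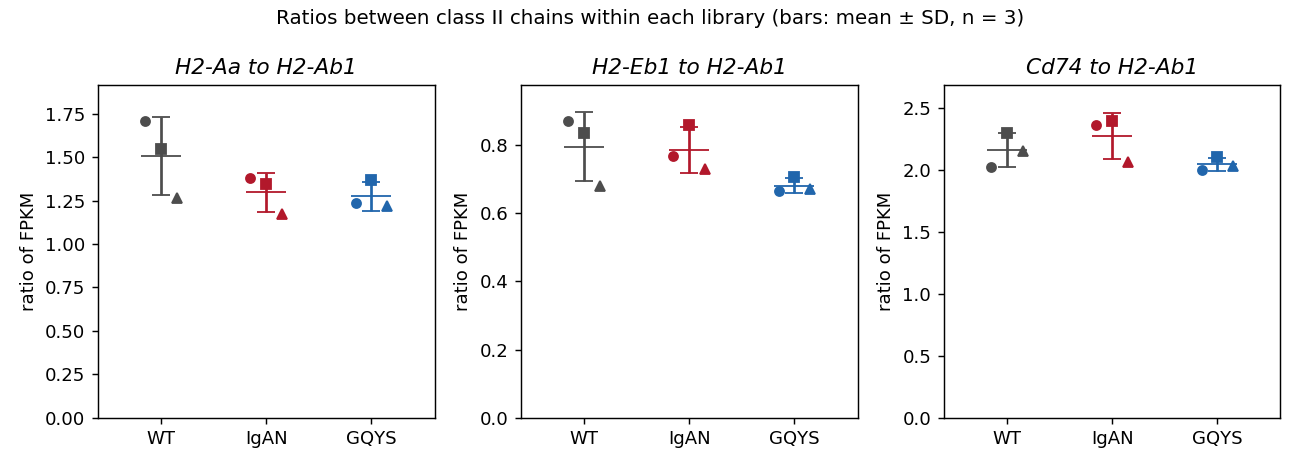
Ratio of FPKM within each library (y axis, linear from 0) for H2-Aa to H2-Ab1, H2-Eb1 to H2-Ab1 and Cd74 to H2-Ab1 in the 3 groups (x axis), with circles, squares and triangles for replicates 1, 2 and 3 and bars for mean ± SD (n = 3). The GQYS values of H2-Eb1 to H2-Ab1, 0.666 to 0.707, lie below the IgAN values.

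Several members varied together from library to library. Over the 9 libraries, Pearson's r of log2(FPKM + 1) with Cd74 was 0.80 for H2-Ab1 and 0.78 for H2-Eb1, each with an exact permutation p of 0.0413 after adjustment over 6 relations (0.00908 and 0.0138 before it). It was 0.73 for H2-DMa (adjusted exact p = 0.0512), 0.70 for H2-DMb1 (0.0569), 0.57 for H2-Aa (0.128) and -0.28 for Ciita (0.474). Spearman's rho was 0.80, 0.70, 0.68, 0.70, 0.57 and -0.13 in that order, and its adjusted exact permutation p was 0.0755 for the first 4, 0.145 for H2-Aa and 0.744 for Ciita. The values share the library total and the composition of each kidney piece. The permutations ran over all 9 libraries without regard to group. How many of all tested genes followed Cd74 as closely was not tested, so the relations are not shown to be particular to class II. Centred on the group means, r was 0.86 for H2-Ab1, 0.82 for H2-Eb1, 0.82 for H2-DMa, 0.58 for H2-DMb1, 0.79 for H2-Aa and 0.078 for Ciita.

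Without WT replicate 3 and IgAN replicate 1, the libraries farthest from the median of Cd74, r was 0.73 for H2-Ab1, 0.62 for H2-Eb1, 0.53 for H2-DMb1, 0.27 for H2-DMa and 0.23 for H2-Aa. The values of H2-DMa and H2-Aa fell most, though neither relation had an adjusted exact p under 0.05 with all 9 libraries. Leaving out the libraries farthest in Cd74 also narrows its range, which can lower r by itself. With 1 library left out, the call of H2-Ab1 was lost without WT replicate 3 (r = 0.67) and without GQYS replicate 1, 2 or 3 (0.83, 0.77 and 0.77). The call of H2-Eb1 was lost without those 4 (0.60, 0.79, 0.73 and 0.79) and without IgAN replicate 1 (0.81).

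The genes whose log2(FPKM + 1) was most like the mean of the 7 members' centred values over the 9 libraries were Ndufaf2 (r = 0.97), Gstp-ps, Cuedc2 and Smim22 (each 0.93), Fcer1g and Unc119 (each 0.91), Cyth4 (0.91) and Stn1 (0.90). Fcer1g encodes a signalling chain of Fc receptors and is one of the general leukocyte genes. It measured 12.9, 11.6 and 5.60 FPKM in WT, 15.8, 8.50 and 12.0 in IgAN, and 8.57, 7.10 and 8.97 in GQYS. WT replicate 3 was lowest and IgAN replicate 1 highest, as for Cd74. Pearson's r of the members themselves with that mean ran from 0.74 for H2-DMb1 to 0.90 for H2-Eb1, apart from Ciita at -0.22. These values are a description, since the genes were selected for them.

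The scarce class II chains H2-Oa and H2-Ob form H2-O, which is known from B cells. H2-Oa measured 0.767, 0.450 and 0.238 FPKM in WT, 0.0803, 0.143 and 0.269 in IgAN, and 0.439, 0.478 and 0.601 in GQYS. All GQYS libraries lay above all IgAN libraries, while WT replicate 3 lay inside the IgAN range. The reads behind these values were 33, 21 and 9 in WT, 3, 6 and 11 in IgAN, and 18, 22 and 23 in GQYS. The change was -0.34 for IgAN against WT, with an adjusted p of 0.456, and 0.37 for GQYS against IgAN, with an adjusted p of 0.397, in limma without a filter.

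H2-Ob measured 0.975, 0.734 and 0.427 FPKM in WT, 0.431, 0.298 and 0.345 in IgAN, and 0.502, 0.499 and 0.653 in GQYS. GQYS and IgAN did not overlap, and WT replicate 3 lay just below IgAN replicate 1. Its change was -0.32 for IgAN against WT (adjusted p = 0.432) and 0.19 for GQYS against IgAN (adjusted p = 0.691), in limma without a filter. H2-DMb2, a close copy of H2-DMb1 whose reads may be split with it, averaged 0.839 ± 0.428 FPKM in WT libraries, 0.486 ± 0.268 in IgAN and 0.989 ± 0.255 in GQYS, and H2-Eb2 had 0 to 6 reads per library. Of these 4 chains 0 were called in any comparison, and 2 had ranges apart, both higher in GQYS than in IgAN, as did 8.62% of genes with any value. Both comparisons use the same 3 IgAN libraries. WT replicate 1, with the most lymph node stroma reads, was the highest library for H2-Oa, H2-Ob and H2-DMb2. The part of lymph node transcripts in these levels was not tested.

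B cell markers were placed beside the scarce chains. All 10 of 10 B cell markers had lower mean log2 values in IgAN than in WT, and 5 of 10 had ranges apart (Cd79a, Cd79b, Ms4a1, Cd22 and Cr2), against 4.88% of genes with any value lower with ranges apart. None passed the filter and none was called. Their summed reads were 137 to 262 in WT, 61 to 67 in IgAN and 155 to 170 in GQYS, with no overlap between IgAN and either other group. Cd79a, a signalling chain of the B cell receptor, measured 1.08, 0.627 and 0.387 FPKM in WT, 0.326, 0.116 and 0 in IgAN, and 0.893, 0.768 and 1.08 in GQYS. Its change was -0.55 for IgAN against WT (adjusted p = 0.331) and 0.74 for GQYS against IgAN (adjusted p = 0.212), in limma without a filter. The part of B cells in the levels of H2-Oa and H2-Ob was not tested.

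**Figure D4:**
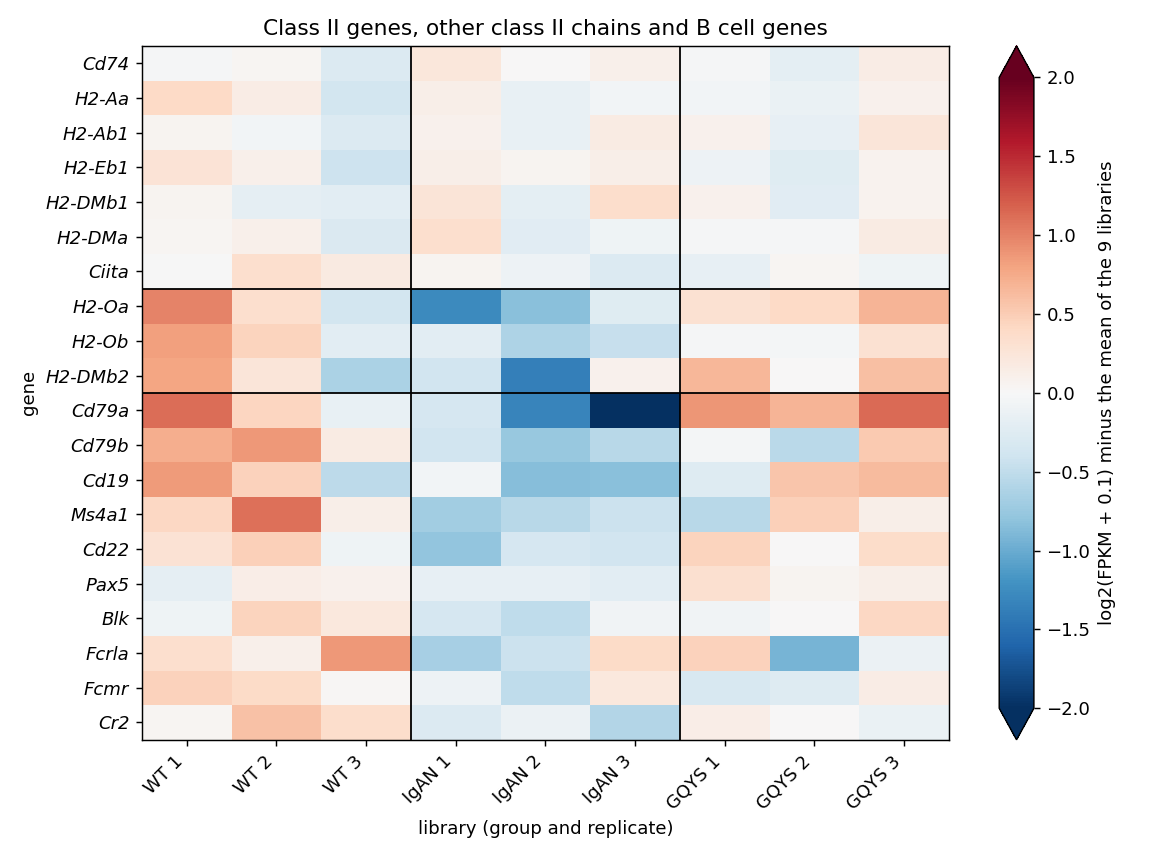
Heat map of log2(FPKM + 0.1) minus its mean over the 9 libraries (colour, red higher and blue lower) for the 7 class II genes, 3 scarce class II chains and 10 B cell markers (rows) in each library (columns, by group and replicate). The upper block is pale in all groups, while H2-Oa, H2-Ob and most B cell rows are bluest in IgAN; Cd79a in IgAN replicate 3, at 0 FPKM, lies beyond the colour scale.

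Markers of other class II carriers were not called either. Of 11 dendritic cell markers 0 passed the test in any comparison, and their summed level was 5.59 to 8.77 FPKM in WT libraries, 4.66 to 8.69 in IgAN and 5.15 to 7.09 in GQYS. In GQYS against IgAN, 3 of 11 had ranges apart, against 15.1% of genes with any value. Zbtb46 and Clec9a were higher in GQYS, with Clec9a at 0.676 to 0.761 FPKM against 0.371 to 0.566, and Batf3 was lower. Of 12 macrophage markers 0 were called, 10 were higher in IgAN than in WT, and 10 were lower in GQYS than in IgAN, 6 of them with ranges apart, against 6.45% of genes with any value lower with ranges apart. Their summed level was 67.0 to 153 FPKM in WT libraries, 118 to 178 in IgAN and 81.7 to 102 in GQYS. Csf1r, the receptor that maintains macrophages, measured 14.3, 17.0 and 9.46 FPKM in WT, 19.5, 16.9 and 16.3 in IgAN, and 14.7, 13.2 and 11.9 in GQYS. The IgAN libraries all lay above the GQYS libraries, a pattern that no class II member showed. Neutrophil genes were the marker list with calls, and 3 of 10 (S100a8, S100a9 and Retnlg) passed the filter. These 3 were called higher in IgAN against WT and lower in GQYS against IgAN, as were 0.353% and 0.198% of tested genes in either direction. Both comparisons share the IgAN libraries. Retnlg reached 1 FPKM only in IgAN libraries, so it passed the filter through the group where it was high. All 10 genes were higher in the first comparison and lower in the second. Of these, Ly6g had 2 reads over all libraries, and IgAN replicate 1 held 10 of the 11 reads of Camp. The summed level of the 10 genes was 1.30 to 3.71 FPKM in WT libraries, 27.5 to 35.3 in IgAN and 2.54 to 3.69 in GQYS. The part of neutrophil genes in the levels of the other lists and of class II was not tested. Of 9 T cell genes 0 were called, and 5 were higher and 4 lower in IgAN than in WT.

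Genes upstream of class II were not called. Of 7 genes of the promoter complex, 0 were called in any comparison, 2 were higher and 5 lower in IgAN than in WT, and the median change was -0.089. Nfya, a subunit of the Y box factor NF-Y, measured 9.70, 10.2 and 10.3 FPKM in WT, 8.05, 9.16 and 7.01 in IgAN, and 7.82, 8.23 and 7.86 in GQYS. All WT libraries lay above all knock-in libraries. The change was -0.29 for IgAN against WT (adjusted p = 0.358 in limma) and -0.30 for GQYS against WT (adjusted p = 0.999 in limma). Rfxap, a subunit of RFX, had ranges apart between GQYS and IgAN with a change of 0.15 and a limma adjusted p of 0.717. In each comparison 1 of the 7 had ranges apart. Of tested genes, 14.0% had ranges apart in IgAN against WT, 19.1% in GQYS against IgAN and 9.74% in GQYS against WT.

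Of 13 genes of the interferon-gamma axis, 0 were called, and 10 were higher and 3 lower in IgAN than in WT, with a median change of 0.14 against 0.021 over all genes tested. Ifng, the cytokine itself, was near the limit of detection, with 6, 1 and 5 reads in WT, 0 in each IgAN library, and 0, 1 and 2 in GQYS. Irf8, a transcription factor of myeloid and B cells, averaged 3.67 ± 0.815, 5.00 ± 0.719 and 4.36 ± 0.582 FPKM in WT, IgAN and GQYS, and Ifngr1, a chain of the receptor, averaged 16.5 ± 2.35, 21.5 ± 4.18 and 18.9 ± 1.05. Their changes for IgAN against WT were 0.37 and 0.35, with adjusted p of 0.435 and 0.422 in limma.

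Downstream of synthesis, 9 genes of peptide processing and class II turnover and 7 co-stimulatory genes gave 0 calls in any comparison. Ctsd, a lysosomal protease abundant in tubules, measured 269, 338 and 335 FPKM in WT, 395, 403 and 414 in IgAN, and 305, 377 and 312 in GQYS. The IgAN libraries lay above all others, with a change of 0.37 against WT (adjusted p = 0.303 in limma) and of -0.29 for GQYS against IgAN (adjusted p = 0.451 in limma). Marchf1, the ligase that marks surface class II for removal, averaged 0.614 ± 0.0589 FPKM in WT libraries, 0.440 ± 0.0829 in IgAN and 0.432 ± 0.0682 in GQYS. Its change was -0.16 for IgAN against WT, with an adjusted p of 0.448 in limma without a filter. Icosl, the ligand of the T cell receptor ICOS, measured 2.56, 3.10 and 2.58 FPKM in WT, 3.48, 3.91 and 4.01 in IgAN, and 2.85 to 3.01 in GQYS. IgAN lay above both other groups, and the changes were 0.36 against WT (adjusted p = 0.231 in limma) and -0.28 for GQYS against IgAN (adjusted p = 0.381 in limma). Of the 9 processing genes, 2 were higher and 1 lower with ranges apart in IgAN against WT, and 1 was lower in GQYS against IgAN. Of the 7 co-stimulatory genes, 1 had ranges apart in each of these comparisons. Among tested genes the shares were 14.0% and 19.1% in either direction.

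Values were also taken without the libraries that stood apart. Without WT and IgAN replicate 1 together, 0 members were called in any comparison. The changes for IgAN against WT were then 0.16 for Cd74, 0.011 for H2-Aa, 0.16 for H2-Ab1, 0.23 for H2-Eb1, 0.26 for H2-DMb1, -0.038 for H2-DMa and -0.21 for Ciita. Those of H2-Aa and H2-DMa had the opposite sign. H2-Oa was then at -0.15 for IgAN against WT in place of -0.34, and at 0.32 for GQYS against IgAN. Without WT replicate 3, 0 members were called.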

How the data were processed

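Per the labels, TRIzol RNA of 9 kidney samples went into VAHTS Universal V6 libraries, and the authors deposited FPKM of 26139 genes. Per the submitters' processing notes, fastp, HISAT2, HTSeq, DESeq2, R 3.2.0 and GRCm39 were used. Of annotation, gene lengths and strand setting nothing is given in the sources used here, and overlapping antisense genes cannot be told apart. FPKM shares a library total, so abundant genes can shift others.

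Whole reads were recovered from FPKM steps within 0.03 reads for all 23797 genes with a value; 0 library pairs were identical. limma 3.58.1 (R 4.3.3, trend) was fitted to log2(FPKM + 1) of all 9 libraries, a pseudocount of 1, for the 11617 genes that reached 1 FPKM in 3 or more libraries, with Benjamini-Hochberg adjustment and a threshold of 0.05. Genes under the filter come from the same fit on 23797 genes. Fold changes on this scale understate those of low genes. Ratios were tested by exact permutation over libraries. Figures were made in matplotlib 3.10.9 under Python 3.11.15. The model was tested on simulated data.

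Members and lists were chosen with earlier results of these data known. Named genes were the 7 members, up to 4 of each pathway or marker list with the smallest p, and the 8 most like the members' mean. Of the genes that this rule selected, 1 is not reported here. H2-Oa, H2-Ob, Marchf1, Ifng and the B cell genes lie under the filter and were named after their values were seen. So were Cfd, Upk1a, Upk2, Upk3a, Krt20, Ccl19, Cxcl13, Clec9a, Ly6g and Camp. Symbols matched RefSeq or GENCODE M21 for 24955 genes. Alternatives covered the pseudocount, filter, scaling, replicate block, groups in the fit, library weights, prior and leaving out each library; voom on recovered reads and leaving out WT and IgAN replicate 1 were added after seeing the data.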

Additional observations from a re-analysis of the deposited data

How the results depend on the processing

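With 3 libraries a group, the intervals leave room for changes of the members of up to 1.49-fold of FPKM + 1 in IgAN against WT. No member was called under any of the 22 alternatives, including each library left out. Over all of them, the changes ran from -0.33 to 0.39 in IgAN against WT, from -0.31 to 0.12 in GQYS against IgAN and from -0.30 to 0.24 in GQYS against WT, and the smallest adjusted limma p was 0.0943, 0.506 and 0.204. Calls among all genes moved more: for IgAN against WT from 41 to 11 with only those 2 groups fitted, 68 with the block, 21 without a filter and 655 with library quality weights, and for GQYS against IgAN from 23 to 43, 26, 13 and 404. Leaving out 1 library gave 14 to 65 and 6 to 54 calls, leaving out WT and IgAN replicate 1 together gave 58 and 63, and a pseudocount of 0.1 gave 39 and 15. These calls hold no class II member. GQYS against WT had 0 calls, but 53 with quality weights and 1 without GQYS replicate 2. With quality weights, Nfya passed in IgAN against WT (-0.37, adjusted p = 0.0454 in limma) and Ctsd in GQYS against IgAN (-0.36, adjusted p = 0.0470); the cause was not tested.

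Whether replicate numbers pair the libraries is not stated, and the correlations of deviations from the group means do not settle it. Same-numbered libraries correlated between 0.223 and 0.581 for replicates 1 and 2, and between -0.364 and 0.0780 for replicate 3. Differently numbered libraries correlated between -0.629 and 0.526. With the replicate block, 0 members were called in each comparison, and the changes were the same by construction.

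Small changes of uncalled members turned sign under some settings, and the cause was not tested. Without WT and IgAN replicate 1 together, H2-Aa was at 0.011 in IgAN against WT, 0.066 in GQYS against IgAN and 0.077 in GQYS against WT, H2-DMa at -0.038 in IgAN against WT, and H2-Eb1 at 0.065 in GQYS against WT. Quantile normalization gave 0.046 for H2-Aa, -0.039 for H2-DMa and -0.026 for Ciita in GQYS against IgAN. Quality weights gave 0.064 for H2-Aa in GQYS against IgAN and -0.0079 for H2-DMa in IgAN against WT. A pseudocount of 0.1 put the GQYS minus WT difference of the ratio of H2-DMa to H2-DMb1 at -0.00024.

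Leaving out 1 library gave these ranges. For IgAN against WT, they were -0.30 to 0.083 for H2-Aa, -0.092 to 0.25 for H2-Eb1 and -0.058 to 0.094 for H2-DMa. For GQYS against IgAN, they were -0.067 to 0.066 for H2-Aa, -0.072 to 0.12 for H2-Ab1, -0.048 to 0.10 for H2-DMa and -0.019 to 0.053 for Ciita. For GQYS against WT, they were -0.30 to 0.077 for H2-Aa, -0.27 to 0.065 for H2-Eb1, -0.015 to 0.086 for H2-DMa and -0.032 to 0.14 for Cd74. Differences of ratios ran from -0.0885 to 0.0160 for H2-Aa to H2-Ab1 in GQYS against IgAN, from -0.0674 to 0.0280 for H2-Eb1 to H2-Ab1 in IgAN against WT, and from -0.00462 to 0.00774 for H2-DMa to H2-DMb1 in GQYS against WT. For H2-DMa to H2-Ab1 they ran from -0.00168 to 0.000597 in IgAN against WT, -0.000917 to 0.00136 in GQYS against IgAN and -0.000916 to 0.000265 in GQYS against WT. Pearson's r with Cd74 ran from 0.67 to 0.86 for H2-Ab1, 0.60 to 0.94 for H2-Eb1, 0.59 to 0.82 for H2-DMa, 0.60 to 0.78 for H2-DMb1 and 0.27 to 0.85 for H2-Aa. The adjusted exact permutation p fell under 0.05 for H2-Aa without WT replicate 1, for H2-DMb1 without WT replicate 2, and for H2-DMa without IgAN replicate 2 or 3. Where 1 library was left out, its group's others were taken to vary like the rest.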
